A study of Mus musculus with 4 samples.

Results

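The 10 genes Lgr5, Olfm4, Ascl2, Smoc2, Axin2, Rnf43, Znrf3, Rgmb, Igfbp4 and Prom1, a set of Wnt-driven genes of the intestinal stem cell, were read in single cells of mouse small-intestinal crypts. They were taken by name from the 32285 genes of the count tables, and each name matched 1 gene. Crypt cells of mice before sleep deprivation (labelled 0D, 2 libraries) and after it (labelled 2D, 2 libraries) were compared; strain, sex and age of the mice and the method of sleep deprivation were not given in the sources used here. Crypts had been released from the intestine with EDTA and passed through a 70 μm strainer, and single cells were profiled by droplet 3′ RNA sequencing, in which each captured RNA molecule is counted once as a unique molecular identifier (UMI). Nothing in the labels says whether the libraries came from separate animals, so a p-value here reflects variation among these 4 libraries alone, and part of that variation could be technical. The number of days or other unit behind the letter D is not spelled out.

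Canonical Wnt signalling keeps intestinal stem cells at the crypt base dividing. Wnt ligands bind Frizzled receptors and stabilise β-catenin, which acts with TCF factors on target genes. R-spondins strengthen the signal by binding Lgr5 and its relatives and holding back Rnf43 and Znrf3, membrane ubiquitin ligases that remove Frizzled from the cell surface. Axin2, a scaffold of the complex that degrades β-catenin, is a feedback target. Ascl2 is a transcription factor of stem cell identity that is itself a Wnt target. Olfm4 and Smoc2 encode secreted proteins used as stem cell markers, and Olfm4 is also known to respond to Notch. Rgmb is a co-receptor for bone morphogenetic proteins, Igfbp4 binds insulin-like growth factors, and Prom1 encodes the membrane protein CD133, which is known from a broader part of the crypt.

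In GENCODE release M21 on GRCm38/mm10 all 10 are protein-coding. Lgr5 lies at chr10:115450311-115587780 on the minus strand, Olfm4 at chr14:79984081-80023139 on the plus strand and Ascl2 at chr7:142966829-142969264 on the minus strand. Chromosome 11 holds 4 of the genes: Znrf3 (chr11:5276324-5444847, minus), Rnf43 (chr11:87662722-87735539, plus), Igfbp4 (chr11:99041244-99054392, plus) and Axin2 (chr11:108920349-108950783, plus). Rgmb (chr17:15803188-15831039, minus) and Smoc2 (chr17:14279506-14404790, plus) share chromosome 17, and Prom1 lies at chr5:43993620-44102032 on the minus strand. Ascl2, Znrf3, Rgmb and Igfbp4 overlap no other annotated gene. Each of the other 6 overlaps at least 1 annotated gene. For Olfm4, Rnf43 and Prom1 such a gene lies on the same strand, so reads in the shared stretches could be assigned differently. For Lgr5, Smoc2 and Axin2 the overlapping gene lies on the opposite strand.

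RefSeq promoter windows (GRCm38.p6) were at hand for 7 of the 10 genes. The 250 bases before the gene start are shown for Ascl2, Axin2 and Igfbp4, the transcription factor, the feedback scaffold and a growth factor binder that were all highest in stem-like cells. Each is written 5′ to 3′ in the direction of the gene and holds no annotated exon.
Ascl2 (chr7:142969265-142969514, minus): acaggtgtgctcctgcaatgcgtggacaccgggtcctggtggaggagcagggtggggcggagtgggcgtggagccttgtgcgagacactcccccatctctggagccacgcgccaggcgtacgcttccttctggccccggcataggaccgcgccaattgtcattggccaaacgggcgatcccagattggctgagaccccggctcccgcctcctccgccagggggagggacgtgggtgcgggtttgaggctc
Axin2 (chr11:108920099-108920348, plus): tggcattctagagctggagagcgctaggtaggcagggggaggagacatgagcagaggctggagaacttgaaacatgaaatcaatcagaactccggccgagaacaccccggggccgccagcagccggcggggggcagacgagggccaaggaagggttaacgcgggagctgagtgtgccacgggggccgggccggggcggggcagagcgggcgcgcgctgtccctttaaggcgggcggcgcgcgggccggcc
Igfbp4 (chr11:99040994-99041243, plus): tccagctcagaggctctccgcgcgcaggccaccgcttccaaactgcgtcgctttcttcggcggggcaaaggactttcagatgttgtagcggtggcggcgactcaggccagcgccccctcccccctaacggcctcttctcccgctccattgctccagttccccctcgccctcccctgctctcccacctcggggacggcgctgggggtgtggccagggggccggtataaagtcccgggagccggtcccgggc
The TCF-type letters CTTTGA and CTTTGT were searched on both strands, and matches would stand in capitals. None of these 3 windows held a match. Among the 11 windows of the 7 genes, 1 did, a window of Rgmb with CTTTGT beginning 16 bases before the start. Of all 32851 promoter windows of the same length, 27.6% held a match. A missing match says only that these letters are absent from the window.

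After leaving out barcodes with fewer than 500 genes or more than 20% mitochondrial UMIs, 7586 and 7132 cells remained in the 0D libraries and 7025 and 7988 in the 2D libraries, with library medians of 9247.5 to 13340.5 UMIs per cell and 93090534 to 113758758 UMIs per library. Pairs of libraries shared 20 to 32 barcodes, at most 0.342% of the smaller library. Cells were assigned to classes by marker lists that contain none of the 10 genes: 2072 stem-like, 4072 dividing progenitor-like, 1854 enterocyte-like, 13245 goblet-like, 1796 Paneth-like, 2018 enteroendocrine-like and 835 tuft-like cells. The 2D libraries differed from each other. In clusters built from all genes but the 10, goblet clusters had 670 of 821 and 1418 of 1665 cells from 2D-1. An enterocyte cluster had 1002 of 1070. Log2 levels over all cells differed between libraries of a group by a root mean square of 0.46 in 2D and 0.28 in 0D. The part of this in the results was not tested. Markers of Paneth cells moved with the groups in cells that are not Paneth-like. In stem-like cells the 13 Paneth markers summed to 2320 and 2829 counts per 1000000 (CPM) in 0D and to 4343 and 5367 in 2D, and all 13 were higher in both 2D libraries. Paneth-like cells held 11.5% and 11.1% of all UMIs in 0D and 19.96% and 22.8% in 2D, and the part of their RNA in other classes was not tested.

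The stem-like class was the highest of 7 classes for 9 of the 10 genes, and the exception was Prom1. Levels are given as CPM, the gene's UMIs per 1000000 UMIs of the class in a library, as mean ± SD over the 4 libraries. The classes are cuts of the same cells, so their order is a description with no test.

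Among the receptors and ligases, Lgr5 reached 134 ± 29.0 CPM in stem-like cells (134 and 106 in the 0D libraries, 122 and 174 in the 2D libraries). Tuft-like cells came next with 66.8 ± 12.1 CPM (73.5 and 61.5 in 0D, 52.7 and 79.7 in 2D). Both classes stood apart from all others in every library. Paneth-like cells followed with 14.8 ± 2.86 CPM, then enteroendocrine-like (8.19 ± 4.18), dividing progenitor-like (5.63 ± 2.18) and goblet-like cells (3.34 ± 1.00), where neighbours overlapped. Enterocyte-like cells were lowest with 0.736 ± 0.513 CPM. In these cells, 0.161% to 1.08% had an Lgr5 UMI at library medians of 11436 to 18936 UMIs per cell. In stem-like cells the share was 62.1% to 72.1% at medians of 10051 to 16900. An Olfm4 UMI was found in 12.8% to 23.2% of enterocyte-like cells.

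Rnf43 followed the same order at the top, with 71.3 ± 11.9 CPM in stem-like and 33.5 ± 5.78 in tuft-like cells, apart from each other and from the next class. Znrf3, the other ligase, was the least restricted of the pair. Its level was 14.4 ± 1.81 CPM in stem-like cells, 11.6 ± 4.39 in tuft-like cells and 11.4 ± 1.36 in enteroendocrine-like cells, and these 3 classes overlapped. Stem-like cells held 32.1% of all Rnf43 UMIs and 16.3% of all Znrf3 UMIs (means of 4 libraries).

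The transcription factor Ascl2 had 67.7 ± 7.02 CPM in stem-like and 44.0 ± 9.48 in tuft-like cells. Dividing progenitor-like cells had 9.93 ± 2.27, apart from both. Goblet-like cells had 1.92 ± 0.964 and enterocyte-like cells 0.245 ± 0.197, with no Ascl2 UMI in the 2D-2 enterocyte-like cells. The feedback scaffold Axin2 ran in another order below the stem-like cells (153 ± 16.4 CPM). Enteroendocrine-like cells came second with 34.9 ± 5.26 followed by dividing progenitor-like cells with 28.0 ± 1.77, and tuft-like cells had 21.7 ± 7.15.

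Of the secreted markers, Olfm4 was the most sharply graded. It stood at 4719 ± 308 CPM in stem-like cells (4658 and 4722 in 0D, 4375 and 5123 in 2D) and at 568 ± 106 in dividing progenitor-like cells. Enteroendocrine-like, Paneth-like, tuft-like and goblet-like cells overlapped their neighbours in the order, from 370 ± 223 down to 123 ± 43.7 CPM, and enterocyte-like cells had 24.4 ± 15.6. Smoc2 did not separate stem-like cells (174 ± 17.1 CPM) from tuft-like cells (150 ± 39.5), and its next class, enteroendocrine-like, stood at 56.2 ± 6.73.

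For Rgmb and Igfbp4, as for Axin2, enteroendocrine-like cells came second, and the orders below differed. Rgmb had 109 ± 26.8 CPM in stem-like and 36.8 ± 3.02 in enteroendocrine-like cells, and Igfbp4 had 76.3 ± 10.4 and 25.8 ± 7.88. Tuft-like cells were low for Igfbp4, with 5.42 ± 3.35 CPM. Prom1 was highest in tuft-like cells at 231 ± 30.4 CPM, apart from stem-like cells at 152 ± 10.2. Enteroendocrine-like (143 ± 10.6) and goblet-like cells (102 ± 18.6) were close behind, and the lowest class was Paneth-like with 23.7 ± 2.35.

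**Figure D1:**
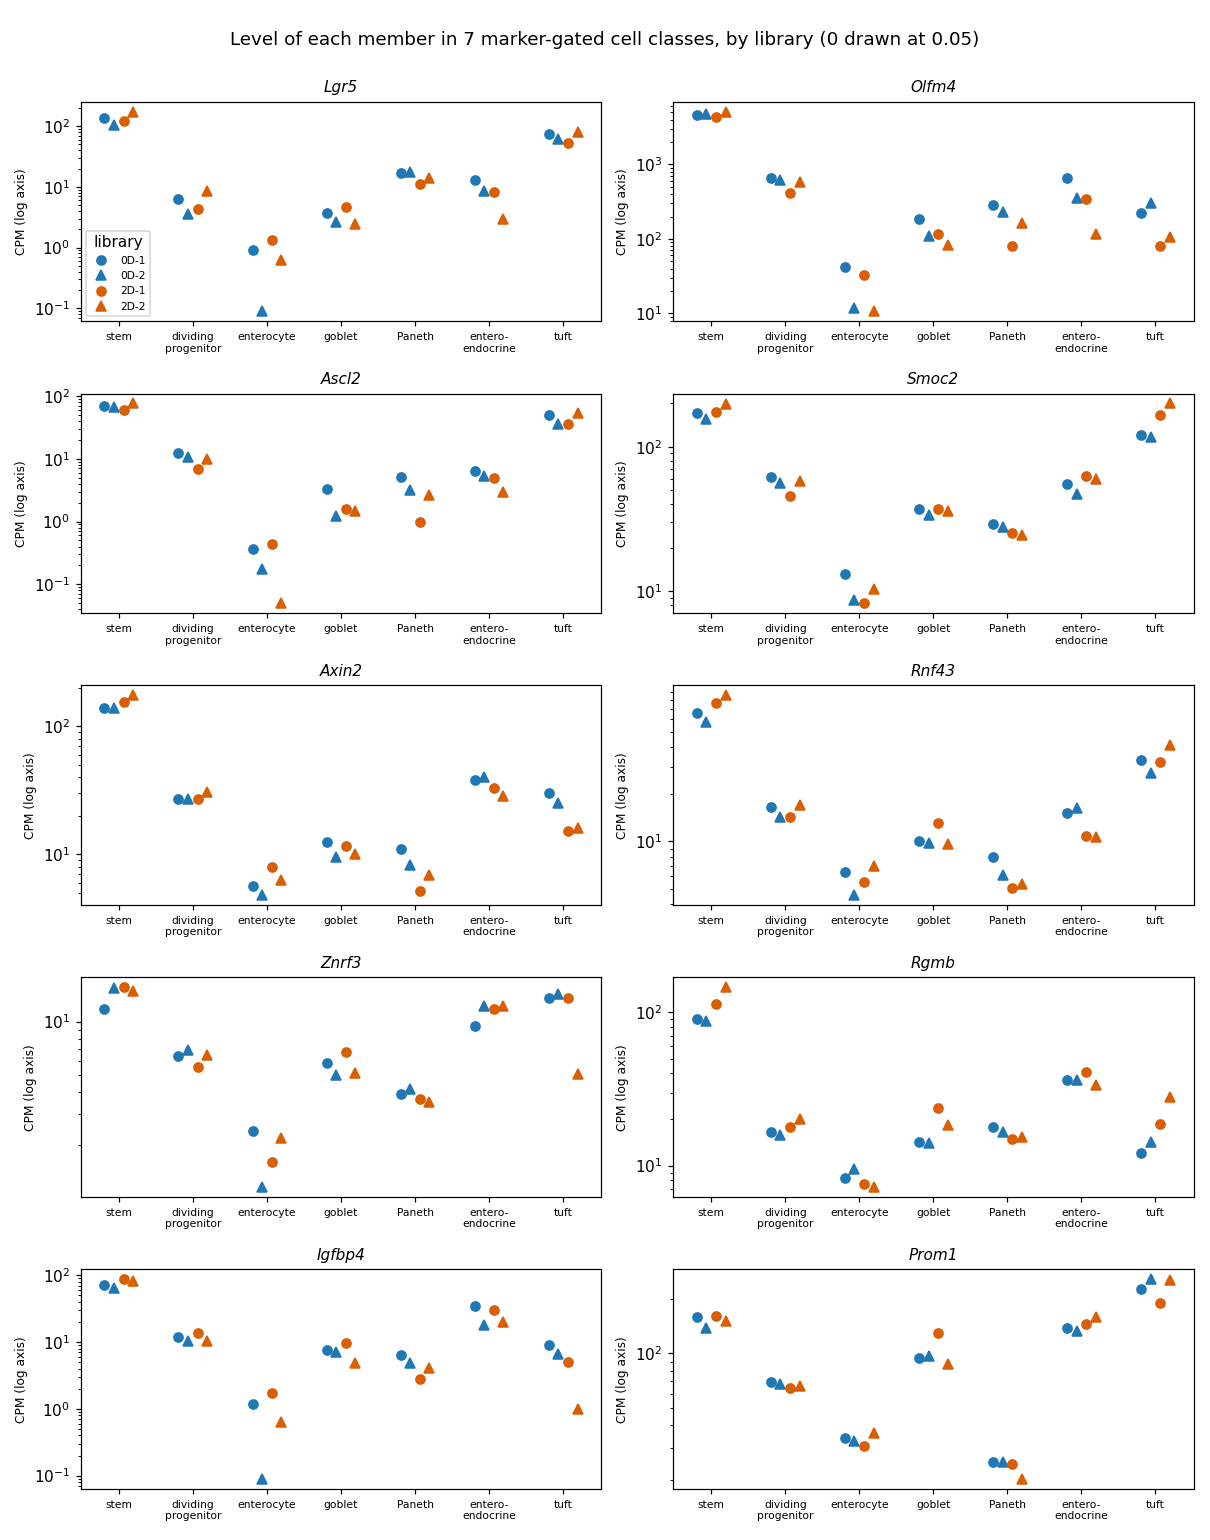
CPM of each gene (log axis) in 7 marker-gated classes, 1 point per library, with 0D in blue and 2D in orange and library numbers 1 and 2 as circles and triangles. Stem-like cells are highest for all genes but Prom1, and Lgr5, Ascl2 and Rnf43 have a second peak in tuft-like cells.

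The genes differed in how much of their RNA came from stem-like cells, which were 4.26% to 10.3% of the cells in a library. As means of the 4 libraries, stem-like cells held 60.2% of Olfm4 UMIs, 57.5% of Lgr5 UMIs and 54.5% of Ascl2 UMIs. The shares were 42.7% for Axin2, 41.8% for Igfbp4, 30.6% for Rgmb, 24.5% for Smoc2 and 12.8% for Prom1. Of the UMIs of all genes, stem-like cells held 3.99% to 9.12% in a library. Paneth-like cells held 15.9% of Lgr5 UMIs, more than any other class outside the stem-like cells. This is near their share of all UMIs, 11.1% to 22.8% in a library. Goblet-like cells, the most numerous class, held 44.95% of Prom1 UMIs, 34.1% of Znrf3 UMIs and 27.4% of Smoc2 UMIs. Of all UMIs they held 37705043 of 113758758 and 40806628 of 110817632 in 0D. In 2D they held 32314703 of 110587001 and 40256575 of 93090534.

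**Figure D2:**
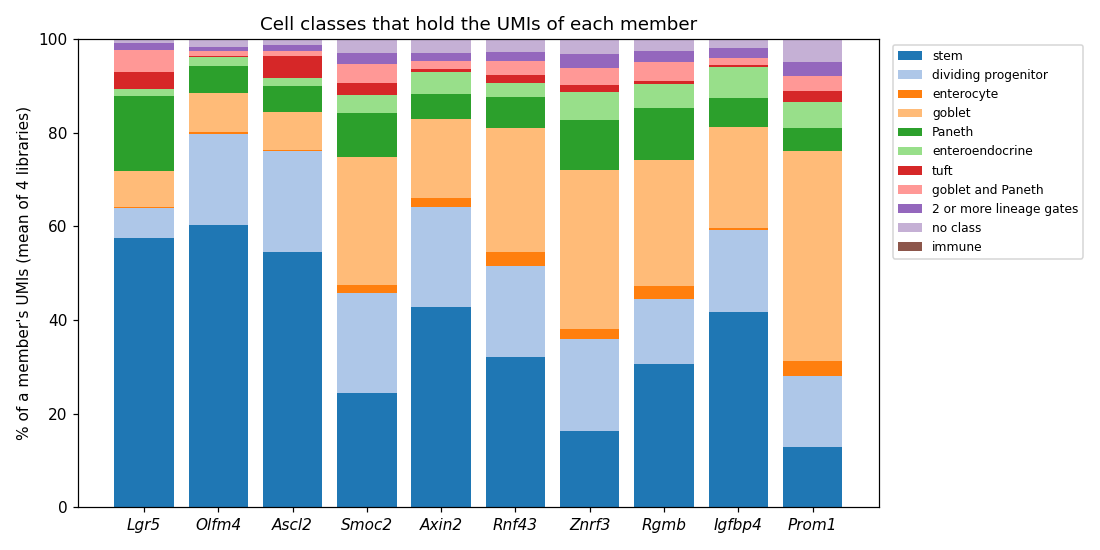
Stacked bars of the percent of each gene's UMIs that fell in each cell class, mean of 4 libraries. Stem-like cells hold over 50% for Lgr5, Olfm4 and Ascl2 and 12.8% for Prom1, whose largest share lies in goblet-like cells.

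Relative to Olfm4, tuft-like cells carried more Lgr5 and Ascl2 than stem-like cells did. Olfm4 itself stood above both in tuft-like cells, at 178 ± 104 CPM. For every 100 Olfm4 UMIs, stem-like cells held 2.25 to 3.40 Lgr5 UMIs in the 4 libraries, whereas tuft-like cells held 33.3 and 20.2 in 0D and 66.0 and 74.5 in 2D. Over all libraries the ratio was 2.66 in goblet-like, 2.58 in enterocyte-like and 2.22 in enteroendocrine-like cells, close to the 2.74 of stem-like cells. It was 8.33 in Paneth-like and 0.909 in dividing progenitor-like cells. Gkn3, 1 of the stem gate markers, had 5 of the 3157033 UMIs of all tuft-like cells, all in library 0D-2. In stem-like cells it had 1805 of 29480359 UMIs. Summed over the 20 stem gate markers, tuft-like cells had 391 to 515 CPM and stem-like cells 3724 to 3969. The gate sets a floor for the stem-like sum, since each stem-like cell needed 25 of these UMIs per 10000. In tuft-like cells 19 of the 20 had a UMI, and Cyp2e1 had none.

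The tuft-like cells were shallow, with library medians of 2128.5 to 3646 UMIs, and their median mitochondrial share was 12.3% to 14.01%. Of their 835 cells, 280 had at most 10% mitochondrial UMIs (52, 61, 48 and 119), and in these Lgr5 stood at 49.8 ± 20.3 CPM and Ascl2 at 57.2 ± 10.2. With cells above a common doublet score left out, the values were 68.7 ± 14.01 and 44.5 ± 9.49 CPM. In clusters built without the 10 genes, the tuft-like cells had 41.0 ± 7.84 CPM of Lgr5 and 32.7 ± 4.44 of Ascl2. At an equal depth of 2000 UMIs per cell, the share of tuft-like cells with an Olfm4 UMI was compared between cells with and without an Lgr5 UMI, and the libraries went opposite ways. It was 5.18% with Lgr5 against 13.0% without in 0D-1 and 5.42% against 11.2% in 0D-2. In 2D-1 it was 17.2% against 6.59% and in 2D-2 13.3% against 5.66%. Each library had 106 to 179 such cells, and an Lgr5 UMI was expected in 11.03% ± 2.34 of them (mean ± SD). The shares with Lgr5 thus rest on few cells, too few to set a direction. In dividing progenitor-like cells the shares were 92.4% and 35.7% as means of 4 libraries, and all 4 went the same way.

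In stem-like cells Lgr5-positive cells had each of the other 9 genes somewhat more often than Lgr5-negative cells at 2000 UMIs. Rgmb was found in 24.3% against 18.3%, Axin2 in 29.8% against 25.1% and Ascl2 in 13.3% against 12.02% (means of 4 libraries). Olfm4 was found in 99.9% against 98.9%. The median stem-like cell as sequenced had 6 to 8 of the 10 genes with a UMI, depending on the library, and the median tuft-like cell 1 or 2.

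The genes also rose to different degrees along the stem marker score, the UMIs of the 20 stem gate markers per 10000 UMIs, among cells outside every lineage gate. From the lowest bin (score under 5) to the highest (50 and over), Lgr5 went from 0.314 to 248 CPM and Olfm4 from 29.0 to 7016 CPM. Ascl2 went from 0.233 to 74.3 CPM in the bin from 35 to 50 and stood at 70.9 CPM in the highest bin, where the 4 libraries (64.7 to 76.99) overlapped those of the bin before (69.2 to 82.6). Prom1 was the flattest, from 54.9 to 207 CPM, and Znrf3 went from 3.24 to 15.9 CPM. In the bin from 10 to 15, below the stem gate of 25, Olfm4 already had 662 CPM while Lgr5 had 4.23. The highest bin held 341 cells.

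**Figure D3:**
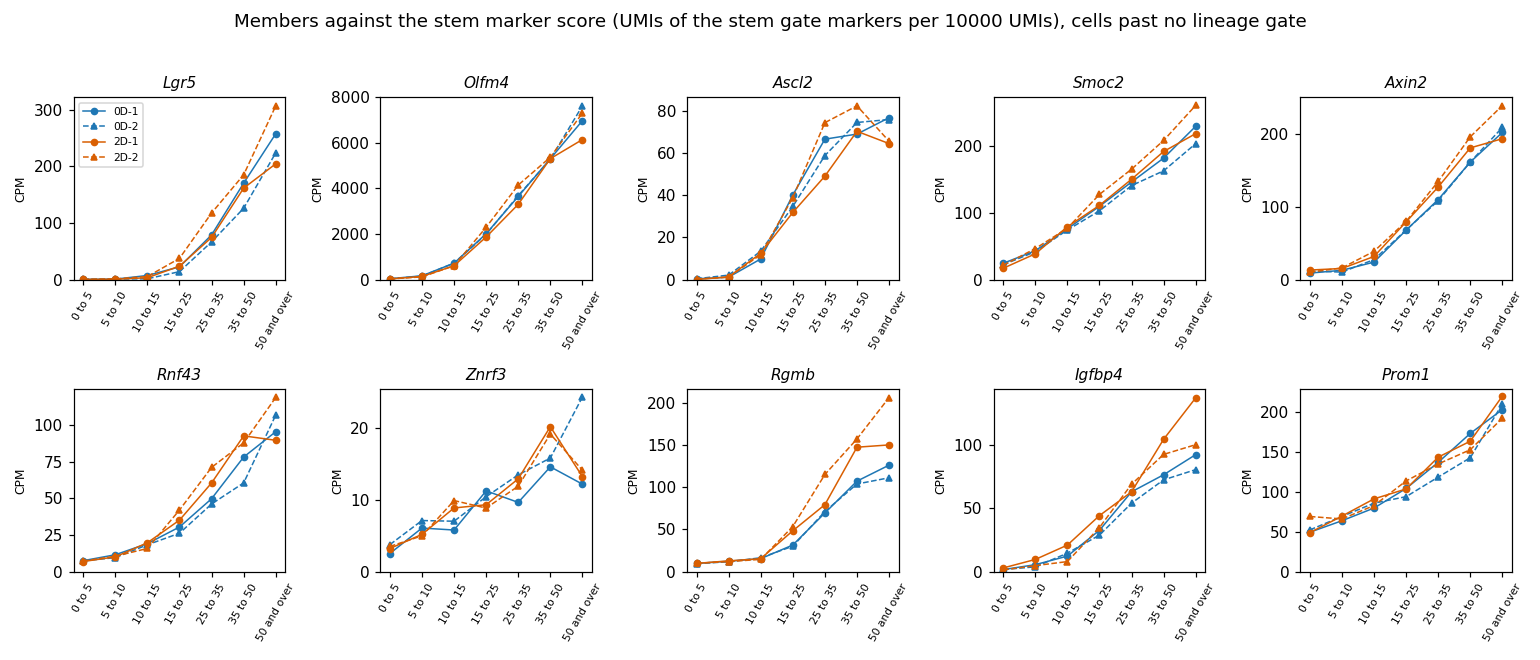
CPM of each gene in 7 bins of the stem marker score, 1 line per library (0D blue, 2D orange; library 1 solid with circles, library 2 dashed with triangles). Lgr5 climbs through the highest bin, whereas Ascl2 is level over the last bins.

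Resting stem-like cells, those under the gate of division markers, had more Lgr5 than dividing ones in each library: 176, 148, 177 and 240 CPM against 122, 98.8, 110 and 153. Olfm4, Igfbp4, Smoc2, Rgmb and Prom1 were also higher in the resting cells of each of the 4 libraries, at 5667 to 6279 against 4089 to 4761 CPM for Olfm4. Goblet-like cells showed the reverse for several genes. Dividing goblet-like cells had 215 to 394 CPM of Olfm4 and 20.5 to 26.2 of Axin2, and resting ones 37.4 to 73.9 and 5.16 to 5.57. Smoc2 stood at 57.9 to 62.5 CPM in the dividing and 23.9 to 27.1 in the resting goblet-like cells.

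A smaller share of cells was stem-like in 2D, that is, past the stem gate and outside every lineage gate. The stem-like share of all cells was 10.3% (95% exact Clopper-Pearson interval 9.59 to 10.97) and 8.26% (7.63 to 8.92) in 0D, and 5.18% (4.67 to 5.73) and 4.26% (3.82 to 4.72) in 2D; the intervals cover counting error only. The groups did not overlap. Their means were 9.26% ± 1.42 (SD, n = 2) and 4.72% ± 0.654 (SD, n = 2), a difference of -4.54 percentage points. With 2 libraries against 2, the exact permutation test over libraries cannot give a two-sided p under 0.33, which is the value here. The difference was -7.29 points at a lower stem gate and -2.48 at a higher one, and 1005 cells lay within 20% of the gate. Dividing progenitor-like cells also fell, from 1380 and 1231 in 0D to 921 and 540 in 2D, and enterocyte-like cells from 650 and 620 to 341 and 243. Paneth-like cells rose from 317 and 308 to 482 and 689, and goblet-like cells from 2996 and 2994 to 3202 and 4053. Enteroendocrine-like cells rose from 391 and 452 to 547 and 628, and tuft-like cells overlapped. The part of the lineage gates in the stem-like share was not tested. Of the stem-like cells, 69.1% and 79.1% passed the division gate in 0D and 77.5% and 68.8% in 2D, which overlap.

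Summed over all cells, Olfm4 and Ascl2 were the lowest in 2D relative to 0D, yet no member passed the test: 0 of 10 had an adjusted p under 0.05 in edgeR's quasi-likelihood test, as had 0.0% of the 15454 genes tested. At an unadjusted p under 0.05 there were 3 members, against 20.3% of all genes. Olfm4 had 715 and 596 CPM in 0D and 422 and 358 in 2D, with no overlap. Its log2 change was -0.64 ± 0.13 (SE, edgeR adjusted p = 0.152). Ascl2 had 11.5 and 9.06 CPM in 0D and 6.17 and 6.32 in 2D, again with no overlap, and a log2 change of -0.60 ± 0.16 (SE, edgeR adjusted p = 0.173). DESeq2 called these same 2 genes (adjusted p = 0.00146 for Olfm4 and 0.0476 for Ascl2), where it called 765 genes in all. Without library 2D-1 the log2 change was -0.67 for Olfm4, -0.50 for Ascl2 and 0.34 for Rgmb. Without library 2D-2 it was -0.62 for Olfm4 and -0.72 for Ascl2.

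Rgmb went the other way over all cells, from 22.3 and 20.8 CPM in 0D to 24.7 and 23.7 in 2D, a log2 change of 0.28 ± 0.09 (SE, edgeR adjusted p = 0.203). Lgr5 overlapped between the groups, with 18.8 and 13.6 CPM in 0D and 13.3 and 14.3 in 2D, and its log2 change of -0.11 ± 0.19 (SE) turned to 0.14 without library 0D-1 and to 0.02 without library 2D-1. The other changes were -0.21 for Axin2, -0.13 for Igfbp4, -0.06 for Rnf43, -0.03 for Smoc2, 0.05 for Znrf3 and 0.09 for Prom1. The median over the 10 was -0.09, and over all genes tested 0.01. By plain CPM, with no scaling for composition, the median of all genes lay 0.11 lower on the log2 scale, and Znrf3 was then lower in both 2D libraries. By CPM, 5 members were lower and 1 was higher in both 2D libraries, against 38.2% and 16.3% of all genes.

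At equal depth the share of cells with a UMI was lower in both 2D libraries for 3 members, Olfm4, Ascl2 and Axin2, and higher in both for Rgmb alone. Of all 15454 genes, 29.4% were lower and 26.6% higher in this way, so the counts are near the background. Cells were reduced to 2000 UMIs each by exact calculation, for the 7342 and 6801 cells of 0D and the 6702 and 7361 cells of 2D that had at least that many. An Olfm4 UMI was then expected in 25.4% and 20.2% of cells in 0D and in 14.5% and 13.1% in 2D. Without this step the shares were 42.1% and 36.3% in 0D and 29.4% and 23.3% in 2D. In enterocyte-like cells at 2000 UMIs the Olfm4 share was 2.23% to 3.94% over the 4 libraries. Ascl2 was expected in 2.18% and 1.71% of 0D cells and 1.08% and 1.29% of 2D cells, and Axin2 in 5.14% and 4.50% against 3.78% and 3.61%. Rgmb was higher in 2D, at 5.24% and 5.03% against 4.47% and 4.24%. Lgr5 overlapped, at 3.50% and 2.51% in 0D and 2.22% and 2.63% in 2D. The exact permutation test over libraries was run for all 10 genes, and the least p this design allows is 0.33.

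The level per positive cell carried little beyond the share for most of the genes, since it lay near 1 UMI at 2000 UMIs. It was 1.011 to 1.225 UMIs over the libraries for the 9 genes other than Olfm4. For Olfm4 a positive cell held 6.05 and 6.18 UMIs in 0D and 5.11 and 5.68 in 2D. Within stem-like cells the means were 10.4 ± 0.260 (SD, n = 2) in 0D and 10.2 ± 1.08 (SD, n = 2) in 2D, and the libraries overlapped.

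**Figure D4:**
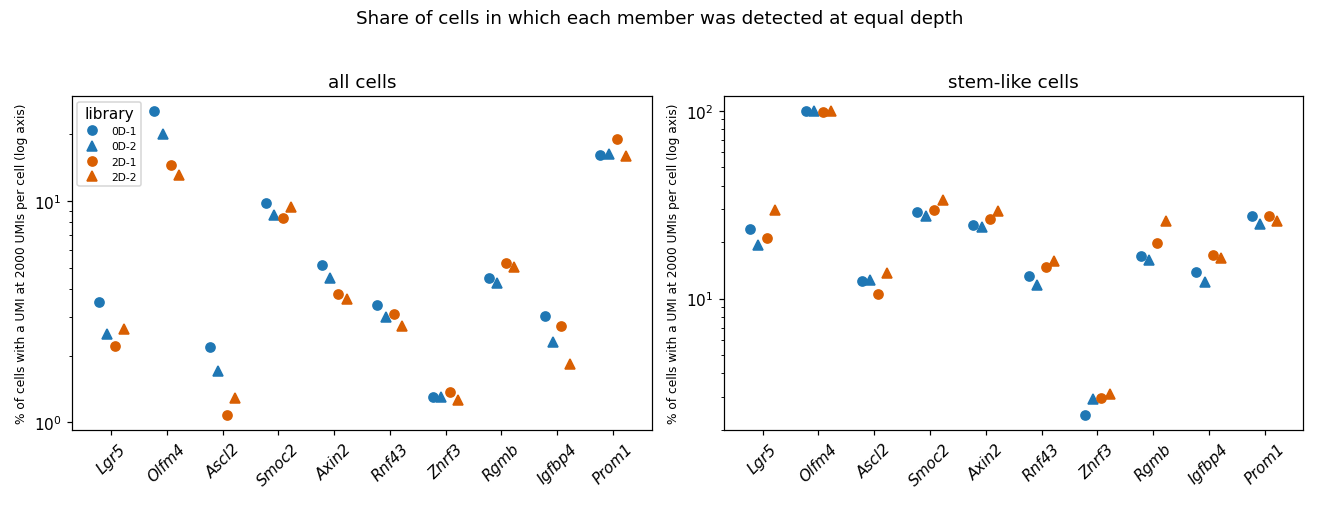
Percent of cells with a UMI of each gene at 2000 UMIs per cell (log axis), in all cells and in stem-like cells, 1 point per library (0D blue, 2D orange; library 1 circles, library 2 triangles). Over all cells Olfm4, Ascl2 and Axin2 lie lower and Rgmb higher in both 2D libraries. Within stem-like cells Olfm4 lies between 98.7% and 99.4% in all 4 and is lower in both 2D libraries.

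Within stem-like cells the low CPM of Olfm4 and Ascl2 in the 2D libraries was not seen, and most of the genes lay slightly higher in 2D. Again 0 of 10 passed edgeR's test, where 21 of 11353 genes (0.185%) did, and 0 of 10 passed in DESeq2. At an unadjusted p under 0.05 there were 4 members, all higher in 2D (Rgmb, Rnf43, Igfbp4 and Axin2), against 11.5% of all genes. The median log2 change of the 10 was 0.18, with 8 above 0, and over all genes tested it was 0.00, with 49.9% above 0. By CPM 5 members were higher and 0 lower in both 2D libraries, against 25.5% and 17.7% of all genes. At equal depth the share of stem-like cells with a UMI was higher in both 2D libraries for 6 members, against 26.0% of all genes. These were Smoc2, Axin2, Rnf43, Znrf3, Rgmb and Igfbp4. That share was lower in both for 1 member, Olfm4, against 16.3% of all genes.

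Rgmb, the co-receptor, had the largest change in stem-like cells, from 90.4 and 88.4 CPM in 0D to 113 and 146 in 2D. The groups did not overlap, and the log2 change was 0.49 ± 0.12 (SE, edgeR adjusted p = 0.207). It passed with no filter on low counts (edgeR adjusted p = 0.000294, with 2.47% of all genes). Rgmb did not pass in DESeq2, with RLE scaling, at a stricter mitochondrial limit, without doublet-scored cells or in clusters built without the members. Without library 2D-1 its log2 change was 0.69. In the fit with the replicate number as a block it also passed (edgeR adjusted p = 0.0309, with 1.3% of all genes). No label pairs libraries of the same number, and their deviations from group means correlated at -0.06 in stem-like cells. Rnf43 had 65.8 and 58.1 CPM in 0D and 75.8 and 85.3 in 2D, with a log2 change of 0.34 ± 0.11 (SE, edgeR adjusted p = 0.322). Igfbp4 stood at 71.5 and 64.1 against 87.0 and 82.7 CPM, and Axin2 at 140 and 140 against 155 and 175 CPM, with log2 changes of 0.29 ± 0.10 and 0.20 ± 0.09 (SE).

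Lgr5 overlapped within stem-like cells, at 134 and 106 CPM in 0D and 122 and 174 in 2D, and its log2 change of 0.26 ± 0.17 (SE) rested on library 2D-2: without it the change was -0.02. Without library 2D-1 it was 0.51. Olfm4 had a log2 change of -0.01 ± 0.10 and Ascl2 of -0.06 ± 0.13 (SE), and both turned sign without library 2D-1 (to 0.11 and 0.14). The remaining changes were 0.15 for Smoc2, 0.14 for Znrf3 and 0.04 for Prom1. The stem gate markers themselves summed to 3727 and 3729 CPM in 0D and 3724 and 3969 in 2D, a sum with a floor set by the gate.

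**Figure D5:**
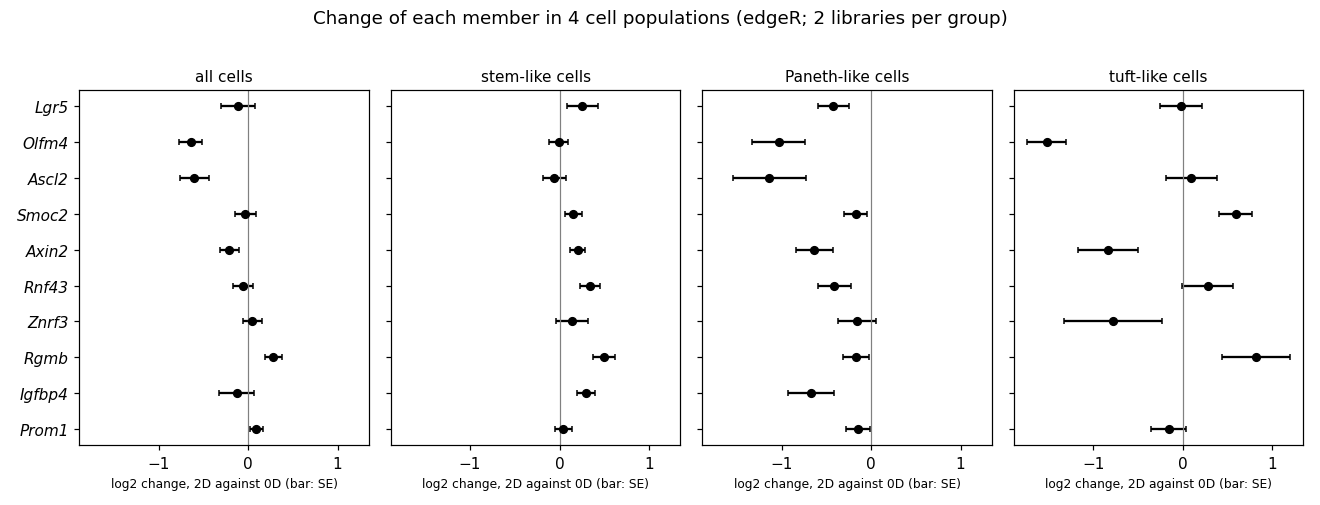
Log2 change of each gene, 2D against 0D, with its SE (edgeR, 2 libraries per group), in all cells and in stem-like, Paneth-like and tuft-like cells; Igfbp4 was not tested in tuft-like cells. Olfm4 lies at -0.64 over all cells and at -0.01 within stem-like cells, and all 10 genes lie below 0 in Paneth-like cells.

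In Paneth-like cells, whose main products are antimicrobial peptides, all 10 genes were lower in both 2D libraries by CPM, against 18.4% of all genes. None of the 10 passed edgeR's test there, as 0.0% of 10597 genes did, and 6 had an unadjusted p under 0.05, against 7.65% of all genes. The median log2 change of the 10 was -0.42, and over all genes 0.00. Olfm4 had 285 and 227 CPM in 0D and 79.9 and 162 in 2D (log2 change -1.03 ± 0.30, SE, edgeR adjusted p = 0.465). It passed with no filter on low counts, as did 1.21% of all genes. Ascl2 had 5.05 and 3.16 against 0.996 and 2.64 CPM, with a log2 change of -1.14 ± 0.41 (SE, edgeR adjusted p = 0.540). With the replicate number as a block, Ascl2, Axin2 and Olfm4 passed in these cells, with 2.04% of all genes.

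The remaining changes in Paneth-like cells were -0.67 for Igfbp4, -0.63 for Axin2, -0.42 for Lgr5, -0.41 for Rnf43, -0.17 for Smoc2 and Rgmb, -0.16 for Znrf3 and -0.15 for Prom1. Without library 2D-2 the log2 change was -2.10 for Ascl2, -1.74 for Olfm4, -1.09 for Igfbp4 and -0.94 for Axin2. Stem gate markers, none of them a member, moved with these genes: their sum in Paneth-like cells was 309 and 248 CPM in 0D and 162 and 204 in 2D, 10 of the 20 were lower and 0 higher in both 2D libraries, and all 20 had a UMI. Division markers moved the same way in these cells. Their sum was 247 and 172 CPM in 0D and 148 and 139 in 2D, and 11 of the 16 were lower and 0 higher in both 2D libraries. With cells above the common doublet score left out, the median change of the 10 was -0.22. The part of RNA from stem or dividing cells, or of doublets, in the result was not tested. The 13 Paneth markers summed to 635333 to 658800 CPM in these cells, so the CPM of any other gene are levels within the remainder.

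Tuft-like cells of 2D had less Olfm4, with 220 and 304 CPM in 0D and 79.8 and 107 in 2D. The log2 change was -1.52 ± 0.22 (SE, edgeR adjusted p = 0.201) where 0 of 9 members tested and 0.0% of 7650 genes passed; 3 members had an unadjusted p under 0.05, against 6.69% of all genes. Olfm4 passed in DESeq2 (adjusted p = 0.00209, with 0.144% of all genes), with no filter on low counts (0.612%) and with the replicate number as a block (0.745%). With any 1 of the 4 libraries left out, Olfm4 had a log2 change of -1.75 to -1.27. It did not pass with RLE scaling (edgeR adjusted p = 0.247), at 10% mitochondrial UMIs (0.152), without doublet-scored cells (0.374) or in clusters built without the 10 genes (log2 change -0.90, 0.0511). Smoc2 lay higher, at 166 and 199 CPM against 120 and 116 (log2 change 0.59 ± 0.18, SE), and Axin2 lower, at 15.3 and 16.1 against 30.0 and 25.3 (-0.83 ± 0.34, SE). By CPM 2 members were higher and 2 lower in both 2D libraries, against 22.4% and 15.4% of all genes. Lgr5 and Ascl2 overlapped between the groups. The stem gate markers summed to 499 and 515 CPM in 0D and to 391 and 473 in 2D in these cells, and their part in the result was not tested.

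In the other classes no member passed edgeR's test, and Olfm4 lay below 0 in each. In enteroendocrine-like cells (0 of 10, and 0.281% of 11396 genes), Olfm4 stood at 661 and 353 CPM in 0D and 348 and 118 in 2D. Its log2 change was -1.15 ± 0.40 (SE, edgeR adjusted p = 0.430). It passed with no filter (2.02% of all genes) and in clusters built without the 10 genes (0.213%). In the main fit of these cells 4 members had an unadjusted p under 0.05, all lower in 2D, against 8.57% of all genes. By CPM 2 were higher and 5 lower in both 2D libraries, against 22.5% and 16.8% of all genes. Lgr5 (-0.95), Rnf43 (-0.58) and Axin2 (-0.37) were lower in both 2D libraries there, with stem gate markers at 942 and 653 CPM in 0D and 727 and 499 in 2D. Division markers there summed to 1148 and 724 CPM in 0D and 625 and 320 in 2D, and 11 of 16 were lower and 0 higher in both 2D libraries. In goblet-like cells (0 of 10, and 0.0149% of 13393 genes), Olfm4 had a log2 change of -0.64 ± 0.24 and Rgmb of 0.49 ± 0.13 (SE), with Rgmb at 14.3 and 13.99 CPM in 0D and 23.9 and 18.4 in 2D. These 2 had an unadjusted p under 0.05, against 9.33% of all genes, and by CPM Rgmb alone did not overlap (25.5% of all genes were higher in both 2D libraries and 16.2% lower). Without library 2D-1 the log2 change was -0.80 for Olfm4, 0.41 for Rgmb and -0.57 for Igfbp4. Without library 2D-2 it was -0.50 for Olfm4, 0.56 for Rgmb and 0.25 for Prom1. The median mitochondrial share of goblet-like cells was 8.47% in library 2D-1 and 3.50% to 3.88% in the other libraries, and its part in the result was not tested. With the replicate number as a block Olfm4 passed in enteroendocrine-like (3.8% of all genes) and goblet-like cells (2.72%).

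In dividing progenitor-like cells (0 of 10, and 0.0243% of 12321 genes), Ascl2 had a log2 change of -0.49 ± 0.21 and Olfm4 of -0.35 ± 0.16 (SE). Without library 2D-2 the change was -0.76 for Ascl2, -0.62 for Olfm4 and -0.36 for Smoc2. Without library 2D-1, Lgr5 had a log2 change of 0.76 there. By CPM 1 member (Rgmb) was higher and 3 were lower in both 2D libraries, against 20.1% and 22.5% of all genes, and 0 had an unadjusted p under 0.05, against 11.3%. In enterocyte-like cells, 0 of the 8 members tested passed, and 0.399% of 10790 genes; Lgr5 and Ascl2 were too low to be tested. None of the 8 had an unadjusted p under 0.05, against 12.3% of all genes; Axin2 was higher and Rgmb lower in both 2D libraries, against 20.9% and 24.1%. The log2 change of Olfm4 there was -0.86 without library 0D-2 and -1.30 without library 2D-1.

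The wider Wnt pathway showed no gene past the threshold either. Of 53 further genes listed by role (receptors, ligands, intracellular parts, inhibitors and targets), 50 were tested over all cells and 44 in stem-like cells, and 0 passed edgeR's test in either, up or down. DESeq2 called 4 of them over all cells (Ephb3, Tcf7l2, Tle3 and Wnt3) and 0 in stem-like cells, against 4.95% and 0.458% of all genes. Over all cells without library 2D-1, the log2 change was 0.88 for Ephb3, 0.34 for Tcf7l2, 0.57 for Tle3 and 1.11 for Wnt3. Without library 2D-2 it was 0.48, 0.45, 0.37 and 0.46 in the same order. Tnfrsf19, 1 of the 53, is also a stem gate marker, so its level in stem-like cells depends on the gate. At an unadjusted p under 0.05 there were 11 of 50 over all cells (10 higher, 1 lower), against 20.3% of all genes, and 7 of 44 in stem-like cells (5 higher, 2 lower), against 11.5%; these shares are near the background. Median log2 changes were 0.12 and 0.10. Those with the smallest p over all cells were Wif1 (1.34), a secreted Wnt inhibitor, Tcf7l2 (0.40), the main TCF factor of the epithelium, and the target Ephb3 (0.70) on the higher side. On the lower side they were Ctnnb1 (-0.20), which encodes β-catenin, the telomerase gene Tert (-0.51) and the secreted inhibitor Sfrp5 (-0.53).

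In stem-like cells the smallest p belonged to the co-repressor Tle1 (0.53), the growth regulator Myc (0.47) and the co-receptor Lrp6 (0.29) on the higher side, and to Sfrp5 (-0.75), the Wnt receptor Fzd5 (-0.31) and Ctnnb1 (-0.17) on the lower. Myc and Sfrp5 passed with the replicate number as a block, as did 1.3% of all genes. Of the 13 target genes in the list, which include the stem gate marker Tnfrsf19, 3 had a higher mean level in tuft-like than in stem-like cells, unlike Lgr5. Sox9 stood at 467.5 CPM in tuft-like and 151 in stem-like cells, Ephb2 at 144 and 60.7, and Cdx1 at 191 and 140 (means of 4 libraries); these were named after their values were seen.

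Among niche signals made next to stem cells, Wnt3 was highest in enteroendocrine-like (43.6 CPM) and Paneth-like cells (34.1 CPM). Its log2 change was 0.82 ± 0.22 over all cells (SE, edgeR adjusted p = 0.173) and 0.03 ± 0.14 within Paneth-like cells. None of the niche genes Wnt3, Egf, Tgfa, Dll1 and Dll4 passed, and in stem-like cells Dll1 (-0.39) was the only one with an unadjusted p under 0.05. Of 8 other genes linked to stem cells or regeneration (Bmi1, Hopx, Tert, Lrig1, Msi1, Clu, Ly6a and Anxa1), 7 were tested in stem-like cells and 0 passed. Ly6a had the largest value there (log2 change 3.17 ± 0.92, SE, edgeR adjusted p = 0.287), and 1 library carried it: its CPM were 2.02 and 6.84 in 0D and 69.0 and 2.96 in 2D.

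Over the 28 sums of 7 classes in 4 libraries, the 10 genes correlated with each other to different degrees (Pearson's r of log2(CPM + 10), a description, since the points share libraries). The pairs ran from 0.43 for Olfm4 with Prom1 to 0.96 for Ascl2 with Rnf43, and Axin2 with Igfbp4 had 0.95. Of 8242 genes compared, the most like Lgr5 were Cttnbp2 (0.92), Slco3a1 (0.89), Kcnq1ot1 (0.87), Notch1 (0.87) and Sema7a (0.86), all with both a stem-like and a tuft-like peak. Cttnbp2 was also the most like Ascl2 (0.97) and Rnf43 (0.97). Axin2 and Igfbp4 were most like Aqp4 (0.97 each), which is itself a stem gate marker. The nearest to the others were Cdo1 for Olfm4 (0.94), Nrtn for Smoc2 (0.97), Hunk for Znrf3 (0.91), Rgcc for Rgmb (0.95) and Limk2 for Prom1 (0.97).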

How the data were processed

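The deposited files hold raw UMI counts per gene and cell barcode. Per the file headers these counts were written by Cell Ranger 7.0.0, while the submitters' processing notes name Cell Ranger 2.1.1 and the mouse build mm10. Cells needed 500 genes or more and a mitochondrial share of 20% or less (93090534 to 113758758 UMIs per library). Classes were set per cell from marker UMIs per 10000, with thresholds at troughs of the marker distributions chosen after the distributions were seen: enterocyte 50, goblet 60, Paneth 1000, enteroendocrine 50, tuft 20 and immune 10. Cells outside these were stem-like at 25 or, failing that, dividing progenitor-like at 10 division marker UMIs. Cells past 2 or more lineage gates (1246 goblet and Paneth, 1047 others), 32 immune-like cells and 1514 cells of no class stayed out of the 7 classes but in the sums of all cells. Doublets were kept, since the automatic call of Scrublet (scanpy 1.11.5) marked 624, 367, 521 and 0 cells; leaving out the 8% of cells above a common score was an alternative.

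Counts were summed per library and class and tested with edgeR 4.0.16 (filterByExpr, TMM, quasi-likelihood, Benjamini-Hochberg over all genes), with DESeq2 1.42.0 as an alternative. Standard errors were taken from the quasi-likelihood F statistic. The 10 genes and the gene lists were chosen with earlier results of these data known. The text names all 10 genes, the Wnt pathway genes that passed or else the 3 with the smallest p in each direction, the niche and stem lists, and the genes most alike. Same-numbered libraries correlated in their deviations from group means between -0.10 and 0.19 by class, so the number was not taken to pair them.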

Additional observations from a re-analysis of the deposited data

How the results depend on the processing

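Of the counts, median changes and shares recomputed under the alternatives, 175 stayed within the replicate spread or at a like count, 35 counts rose from 0 and 17 values moved further. Median changes near 0 crossed it in several classes, as the ranges show. Fits without 1 library, run for each library in turn, are read here for the size of change only. Fits that left a group with 1 library assume that it varies like the other group. Over all cells without 2D-1 or 2D-2, edgeR called 4045 and 1915 genes, against 0 with all libraries. The Wnt pathway counts ran from 0 to 11 over all cells and 0 to 5 in stem-like cells. The median changes of the 10 genes ran from -0.23 to 0.056 over all cells, -0.17 to 0.040 in dividing progenitor-like, -0.11 to 0.53 in enterocyte-like, -0.14 to 0.17 in goblet-like, -0.61 to -0.26 in Paneth-like, -0.45 to -0.11 in enteroendocrine-like and -0.31 to 0.20 in tuft-like cells. The number of members with a lower level per positive cell in 2D, 5 with all libraries, ran from 3 to 6.

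With the replicate number as a block, 0 members passed over all cells (0.0% of all genes) and in dividing progenitor-like (0.495%) and enterocyte-like cells (2.47%). In stem-like (1.3%), tuft-like (0.745%), enteroendocrine-like (3.8%) and goblet-like cells (2.72%) 1 member each passed. In Paneth-like cells 3 passed (2.04%). No label pairs libraries of the same number, so this block is an alternative setting only. The Wnt pathway count with this block was 0 over all cells and 2 in stem-like cells. DESeq2 called 2 members and 4 Wnt pathway genes over all cells (4.95% of all genes) and 1 member in tuft-like cells (0.144%). With no filter on low counts, 1 member each passed in stem-like (2.47% of all genes), enteroendocrine-like (2.02%) and tuft-like cells (0.612%). In Paneth-like cells 2 members passed (1.21%), and in stem-like cells 4 Wnt pathway genes did, among them the stem gate marker Tnfrsf19. In clusters built without the 10 genes, 1 member passed in enteroendocrine-like cells (0.213% of all genes), and the median change in dividing progenitor-like cells was 0.14. Without doublet-scored cells the median in Paneth-like cells was -0.22. The number of members with a lower share of positive stem-like cells in 2D was 2 at 2000 UMIs, 1 at 1000 UMIs, 0 without thinning and 0 in the clusters. The stem-like share differed by -7.29 points at the lower and -2.48 at the higher gate. The cause of these shifts was not tested.

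Signs turned for single genes. Leaving out 1 library at a time gave ranges over all cells of -0.34 to 0.14 for Lgr5 (0.02 without 2D-1), -0.15 to 0.079 for Smoc2, -0.18 to 0.060 for Rnf43 and -0.37 to 0.078 for Igfbp4. In stem-like cells they were -0.024 to 0.51 for Lgr5, -0.25 to 0.14 for Ascl2, -0.045 to 0.33 for Znrf3 and -0.066 to 0.16 for Prom1. Olfm4 in stem-like cells was 0.12 in the clusters and 0.11 without 2D-1. Smoc2 over all cells was 0.018 at 10% mitochondrial UMIs. In tuft-like and enterocyte-like cells few UMIs limit the lower genes.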
